A study of Mus musculus with 6 samples.

Results

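Arterial identity in retinal endothelial cells was followed through 10 genes, Gja4, Gja5, Hey1, Hey2, Bmx, Mgp, Fbln5, Cxcr4, Alpl and Gkn3, all of which were among the 24421 rows of the expression table. They were chosen by name, as genes known for expression in arterial endothelium or around arteries. RNA was sequenced from cells labelled as retinal endothelial cells of C57BL/6 mouse pups at postnatal day 7. The 3 mutant libraries came from Anxa3 fl/fl;Tie2-Cre pups and the 3 control libraries from Anxa3 fl/fl pups, so floxed Anxa3 alleles are shared by both groups and Cre is carried by the mutants alone. Tie2-Cre acts in endothelial cells and also in blood-lineage cells, and the design does not separate Cre from Anxa3 deletion: these cannot be told apart. The labels do not say how many pups went into a library, so p-values measure only the spread between these libraries. The comparison asks whether arterial genes differ once Anxa3 is deleted. It encodes annexin A3, a calcium-dependent membrane-binding protein, and the study asks about the alignment of retinal arteries and veins.

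Arteries and veins of the mouse retina form from a shared plexus that sprouts under VEGF. In arterial endothelium, VEGF and SOXF factors raise Dll4 and Notch signalling. Notch then switches on the HEY repressors and, with flow, genes for gap junction channels and matrix proteins. As a set, these genes do not mark arteries alone in a whole retina, since neurons, glia, microglia and mural cells use some of them as well.

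Values are FPKM, that is, fragment counts divided by the length of the gene and the size of the library. Reads recovered from the FPKM steps ranged from 21386054 to 30904076 per library. The targeted gene Anxa3 had 9.78, 12.5 and 15.1 FPKM in mutants and 18.7, 17.7 and 43.4 FPKM in controls, without overlap of the groups. Its mean in mutants was 0.468 times that in controls, so part of the Anxa3 signal remained in mutants. The log2 difference of -0.93 had a limma p of 0.0204 unadjusted and 0.9998 adjusted. The 3 endothelial reference genes, the adhesion molecule Pecam1, the cadherin Cdh5 and the tight junction protein Cldn5, summed to 248 to 345 FPKM in mutants and 219 to 499.8 FPKM in controls. A wider list of 22 endothelial genes, these 3 included, summed to 877 to 1193 FPKM in mutants and 825 to 1843 FPKM in controls. Photoreceptor markers were present at higher sums, 4566 to 6018 FPKM in mutants and 3813 to 5483 FPKM in controls over 12 of 12 markers. The libraries thus also held RNA of other retinal cells, though sums over lists of unlike size do not give their shares. Markers of Müller glia and astrocytes summed to 315 to 397 FPKM in mutants and 372 to 421 FPKM in controls, and those of fibroblasts to 13.4 to 16.5 FPKM in mutants and 13.2 to 15.1 FPKM in controls, with Lum at 0. Control replicate 3 stood apart, with an endothelial level (the geometric mean of the 3 reference genes) 2.06 times the mean of control replicates 1 and 2. That level was 74.9, 76.8 and 96.0 FPKM in mutant replicates 1, 2 and 3, against 77.0, 66.8 and 148 FPKM in control replicates 1, 2 and 3. In such bulk samples, fewer cells of a type and less RNA per cell cannot be told apart.

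No arterial gene passed the test of mutant against control libraries. Of the 10, 9 reached 1 FPKM in at least 3 libraries and were tested, and 0 of 9 passed at a limma adjusted p under 0.05, where 0% of all 13622 genes passed. At an unadjusted limma p under 0.05 there were 0 of 9 members and 165 genes in all, or 1.21%. On the log2(FPKM + 1) scale 8 of 9 tested members had a lower mean in mutants, against 52.5% of all genes, and 1 of 9 had a higher mean, against 47.5%, and their median difference was -0.17, against -0.01 over all genes. The 3 endothelial reference genes were lower too, with a median of -0.20. Control replicate 3 was the highest of the 6 libraries for 8 of 10 members, against 24.4% of all genes. Without control replicate 3, 4 of 9 members had a lower mean in mutants and 5 had a higher one. The 95% limma intervals still allowed sizeable differences, from 0.561-fold for Fbln5 to 1.33-fold for Gja4 and Alpl. These are folds of FPKM + 1. They understate what the intervals allow in FPKM, most of all for low members such as Gja5 and Bmx.

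The members spanned a wide range of levels. Averaged over all 6 libraries, FPKM ran from 38.0 for Mgp through 18.0 for Gja4, 13.6 for Cxcr4, 11.3 for Alpl, 6.45 for Hey1, 4.37 for Fbln5, 3.92 for Hey2, 1.58 for Bmx and 1.16 for Gja5 to 0.730 for Gkn3. Mgp lay above every other member in each library without any overlap of ranges, and Alpl likewise lay above Hey1. Fbln5 exceeded Hey2 in only 3 of 6 libraries, so these neighbours were not separated. Cxcr4 exceeded Alpl, and Bmx exceeded Gja5, in 5 of 6 libraries.

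**Figure D1:**
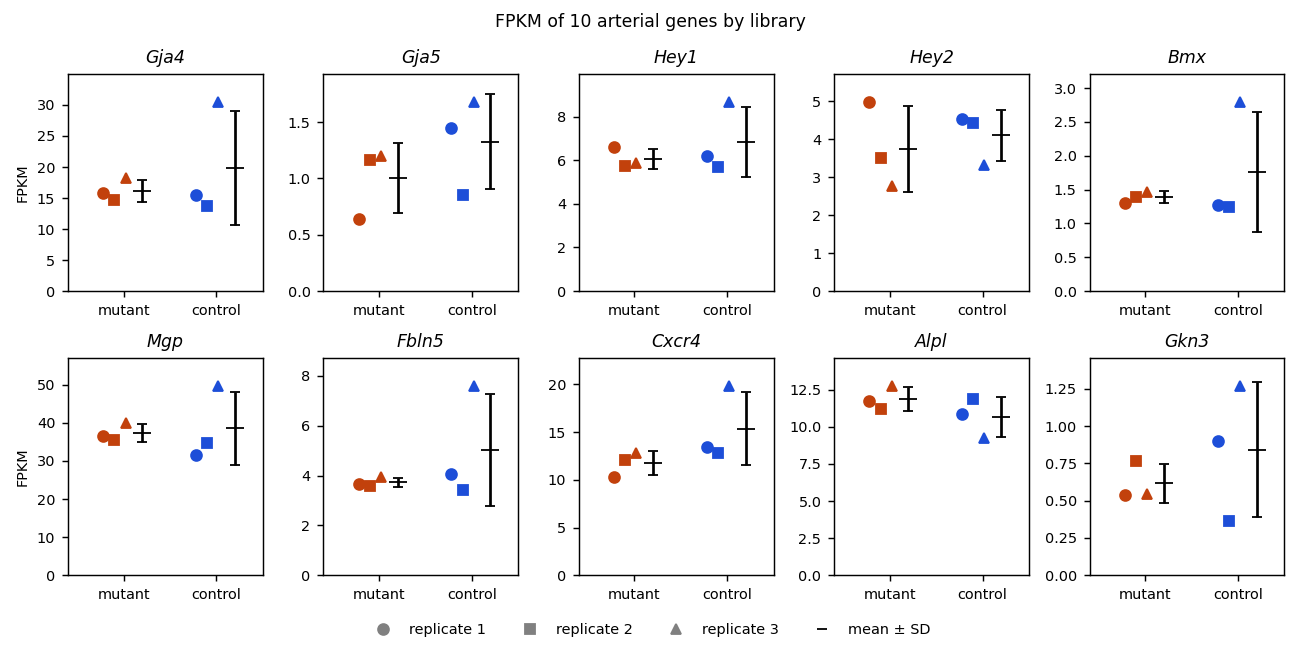
FPKM of the 10 arterial genes (vertical axes from 0) in the 3 mutant and 3 control libraries; symbols give the replicate and black bars the mean ± SD. Control replicate 3 is the highest library for 8 of 10 genes, whereas Alpl is lowest there at 9.26 FPKM.

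Neither arterial gap junction gene separated the genotypes. Gja4, which encodes a connexin of arterial endothelium, had 15.7, 14.7 and 18.2 FPKM in mutant replicates 1, 2 and 3, against 15.5, 13.6 and 30.4 FPKM in control replicates 1, 2 and 3. Control replicate 3 was high and the other libraries of both genotypes overlapped. The group means were 16.2 ± 1.78 FPKM in mutants and 19.8 ± 9.20 FPKM in controls (SD, n = 3 each), and the log2 difference of -0.20 had a standard error of 0.265. Without control replicate 3 that difference became 0.14. Gja5, which encodes another arterial connexin, had 0.642, 1.16 and 1.198 FPKM in mutants and 1.45, 0.857 and 1.68 FPKM in controls. Mutant replicate 1 was lowest and the groups overlapped. Its log2 difference was -0.21 with a standard error of 0.199, and 43 to 142 reads lay behind each value, so the counting interval alone ran from 0.465 to 0.865 FPKM in mutant replicate 1 (exact Poisson, 95%, counting error only). The Gja5 difference was -0.08 without mutant replicate 1 and -0.10 without control replicate 3.

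The HEY genes, Notch effectors, differed in which libraries were high. Hey1, a basic helix-loop-helix repressor switched on by Notch, had 6.59, 5.72 and 5.87 FPKM in mutants and 6.19, 5.68 and 8.65 FPKM in controls, with control replicate 3 high and the groups overlapping. The log2 difference was -0.13 with a standard error of 0.157, and it was 0.03 without control replicate 3. Hey2, the related repressor needed for arterial fate (first shown through its zebrafish counterpart gridlock), had 4.97, 3.51 and 2.75 FPKM in mutants and 4.53, 4.44 and 3.33 FPKM in controls. Here control replicate 3 was the lowest control and mutant replicate 3 the lowest library of all. The Hey2 log2 difference of -0.12 had a standard error of 0.194, and it was 0.03 without mutant replicate 3. Retinal progenitors also use HEY genes, and the summed level of 9 of 9 progenitor markers was 313, 283 and 268 FPKM in mutants and 302, 332 and 264 FPKM in controls. The 3 libraries with the highest Hey2 were also the 3 with the highest progenitor sum, and the part of progenitors in the Hey2 values was not tested.

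The start regions of Gja4 and Hey2 are shown because these members lay at opposite ends in how closely they followed endothelial content. Capitals mark TGGGAA on either strand, the core recognised by RBPJ, the DNA-binding partner of Notch. The windows run from 250 bases before to 50 bases after the RefSeq start, on GRCm38.p6, 5′ to 3′ along the gene. Gja4 is at chr4:127313990-127314289 and Hey2 at chr10:30842734-30843033, both on the minus strand.
Gja4: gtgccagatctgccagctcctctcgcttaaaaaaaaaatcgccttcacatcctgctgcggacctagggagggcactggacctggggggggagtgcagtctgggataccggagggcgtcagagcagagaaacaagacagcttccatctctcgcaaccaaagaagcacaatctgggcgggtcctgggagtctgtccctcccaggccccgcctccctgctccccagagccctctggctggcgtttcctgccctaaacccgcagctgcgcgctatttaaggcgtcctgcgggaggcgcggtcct
Hey2: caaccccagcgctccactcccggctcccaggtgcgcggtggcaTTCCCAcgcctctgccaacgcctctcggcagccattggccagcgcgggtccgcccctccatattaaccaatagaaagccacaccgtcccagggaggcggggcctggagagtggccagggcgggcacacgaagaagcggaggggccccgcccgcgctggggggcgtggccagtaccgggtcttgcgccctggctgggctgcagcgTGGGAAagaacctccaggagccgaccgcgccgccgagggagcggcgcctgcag

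The Hey2 window held 2 matches, one on the reverse strand that began 207 bases before the start and one on the forward strand that began 3 bases before it, and the Gja4 window held none. The 8 members found in the set of RefSeq windows used here had 10 windows. Of these, 3 held a match (1 each of Hey2, Fbln5 and Bmx), against 25.6% of all 32851 windows, a share close to that of the members. The SOX core AACAAT was in 1 of 10 member windows (10.7% of all windows) and the ETS core AGGAAGT in 0 of 10 (9.35% of all windows), with both strands searched and no overlap between the 3 motifs in the member windows. Matches describe letters in these windows only.

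The arterial kinase and matrix genes mostly followed control replicate 3. Bmx, a TEC-family tyrosine kinase of arterial endothelium and endocardium, had 1.296, 1.39 and 1.47 FPKM in mutants and 1.27, 1.24 and 2.79 FPKM in controls. Control replicate 3 was 2.22 times the mean of control replicates 1 and 2, whereas the mutants lay slightly above those 2 libraries. The Bmx log2 difference was -0.17 with a standard error of 0.220, and 0.08 without control replicate 3. Mgp, the matrix Gla protein that binds BMPs and limits calcification, had 36.5, 35.6 and 40.0 FPKM in mutants and 31.5, 34.8 and 49.5 FPKM in controls. Control replicate 3 was highest and the other controls were the lowest libraries, so the groups overlapped on both sides. Its log2 difference of -0.02 had a standard error of 0.162 and an interval from -0.40 to 0.35, and it was 0.17 without control replicate 3.

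Fbln5, an elastic fibre protein, had 3.65, 3.60 and 3.93 FPKM in mutants and 4.06, 3.43 and 7.58 FPKM in controls. Control replicate 3 was about as far above its group as for the endothelial reference genes, at 2.02 times the mean of the other controls. The log2 difference of -0.29 had a standard error of 0.235 and became -0.00 without that library. Mural cells also make Mgp and Fbln5. The 12 of 12 pericyte and smooth muscle markers summed to 281, 234 and 265 FPKM in mutants and 198, 214 and 369 FPKM in controls, and their part in these values was not tested.

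Cxcr4 was the only member whose groups did not overlap. This chemokine receptor of tip and arterial endothelial cells, which microglia and neurons also carry, had 10.3, 12.1 and 12.8 FPKM in mutants and 13.5, 12.8 and 19.8 FPKM in controls. The highest mutant and the lowest control differed by less than 0.05 FPKM, with 646 and 564 reads behind them. Groups did not overlap for 4.35% of all genes. The log2 difference was -0.34 with a standard error of 0.168, the limma p was 0.0791 unadjusted and 0.9998 adjusted, and a 2-sided exact permutation test gave p = 0.1, the smallest that 20 arrangements allow. Without control replicate 3 the difference was -0.15. Microglial markers summed to 40.2, 69.3 and 89.5 FPKM in mutants and 80.1, 82.8 and 62.8 FPKM in controls over 12 of 12 markers. Both this sum and Cxcr4 were lowest in mutant replicate 1. The sum was highest in mutant replicate 3, however, and Cxcr4 in control replicate 3. The part of microglia in the Cxcr4 difference was not tested.

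Alpl, the tissue-nonspecific alkaline phosphatase of brain arterioles and capillaries, was the tested member with a higher mean in mutants. It had 11.7, 11.2 and 12.7 FPKM in mutants and 10.9, 11.9 and 9.26 FPKM in controls. The groups overlapped and control replicate 3, the library richest in endothelial transcripts, was lowest. The log2 difference was 0.15 with a standard error of 0.116 and an interval from -0.12 to 0.42, and it was 0.06 without control replicate 3. Alpl is also made outside vessels. The photoreceptor sum was 6018, 4578 and 4566 FPKM in mutants and 5483, 5200 and 3813 FPKM in controls. It was likewise lowest in control replicate 3. Among the mutants, however, replicate 3 had the highest Alpl and the lowest photoreceptor sum. The part of photoreceptors in the Alpl values was not tested.

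Gkn3, a secreted gastrokine known as a marker of mouse brain arteries, fell under the expression filter. It had 0.539, 0.769 and 0.544 FPKM in mutants and 0.899, 0.365 and 1.27 FPKM in controls, from only 7 to 26 reads per library. The counting interval was 0.246 to 1.02 FPKM in mutant replicate 1, 0.827 to 1.86 FPKM in control replicate 3 and 0.147 to 0.751 FPKM in control replicate 2 (exact Poisson, 95%). The intervals of the last 2 libraries, both controls, did not overlap. These are the highest and lowest libraries for Gkn3, so the pair does not test whether the spread exceeded counting error. The groups overlapped, and a 2-sided exact permutation test gave p = 0.6 for a log2 difference of -0.16.

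**Figure D2:**
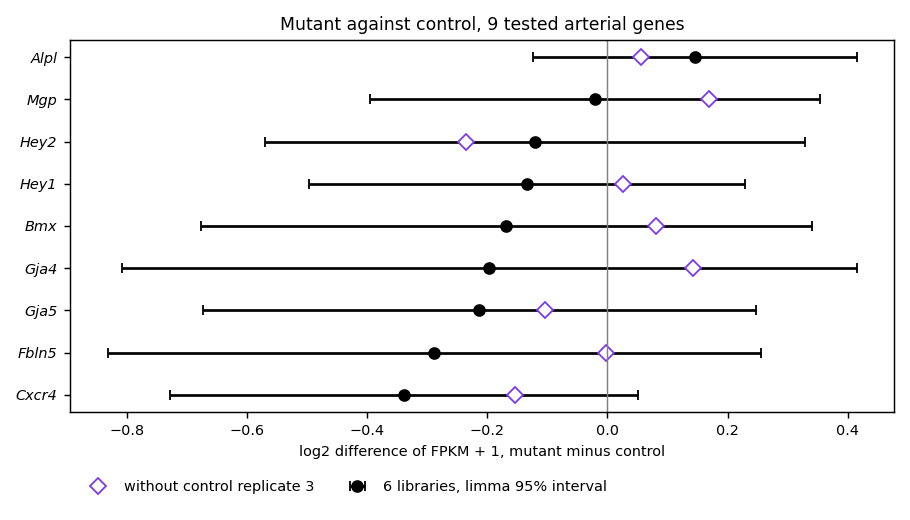
Log2 difference of FPKM + 1 (horizontal axis), mutant minus control, for the 9 tested arterial genes; filled points with bars are limma estimates from 6 libraries with 95% intervals, and open diamonds leave out control replicate 3. All 9 intervals include 0, and without control replicate 3 the estimates for Gja4, Hey1, Bmx, Mgp and Alpl lie above 0.

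The members were next expressed as a percentage of the endothelial level of the same library, with no pseudocount. On this scale Gja4 was nearly constant, at 21.0%, 19.1% and 18.9% in mutants and 20.1%, 20.4% and 20.6% in controls. Its means were 19.7 ± 1.16% in mutants and 20.4 ± 0.240% in controls (SD, n = 3 each). The highest library was 1.11 times the lowest, against 2.23 times in FPKM. Of 13488 tested genes above 0 in every library, 10 had a spread this small or smaller, Gja4 included, and the median spread was 2.35 times. Bmx, at 1.73%, 1.81% and 1.53% in mutants and 1.65%, 1.85% and 1.88% in controls, varied 1.23 times, close to the median of 1.22 times for 19 further pan-endothelial genes.

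Fbln5 also tightened, to 4.87%, 4.69% and 4.10% in mutants and 5.28%, 5.13% and 5.12% in controls. Every mutant lay below every control, and groups did not overlap, in either direction, for 1.58% of genes on this scale. The Fbln5 means were 4.55 ± 0.404% in mutants and 5.18 ± 0.0875% in controls (SD, n = 3 each). A 2-sided exact permutation test gave p = 0.1, again the smallest possible, and with a pseudocount of 1 the groups overlapped (exact permutation p = 0.3), so the separation depended on that choice. Cxcr4 no longer separated the groups. It was 13.8%, 15.8% and 13.3% of the endothelial level in mutants and 17.5%, 19.2% and 13.4% in controls.

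Hey2 and Alpl spread more, not less, when set against endothelial content. Hey2 was 6.64%, 4.58% and 2.87% in mutants and 5.88%, 6.64% and 2.25% in controls, a range of 2.96 times, against 1.80 times in FPKM. Alpl was 15.7%, 14.6% and 13.2% in mutants and 14.1%, 17.8% and 6.25% in controls, a range of 2.85 times, against 1.37 times. Both were lowest in control replicate 3 and neither parted the genotypes. On the same scale photoreceptor markers had a median range of 3.12 times and progenitor markers 2.73 times. Markers of microglia had 3.44 times, of Müller glia and astrocytes 2.75 times and of fibroblasts 2.31 times. The median was 1.64 times for pericyte and smooth muscle markers and 2.35 times for all genes above 0 in every library. The source of the Hey2 and Alpl ranges was not tested. Hey1 and Mgp lay between, with ranges of 1.51 and 1.56 times, and both were also lowest in control replicate 3, at 5.85% and 33.5%. Gja5 at 0.857% to 1.88% and Gkn3 at 0.546% to 1.17% had ranges of 2.19 and 2.14 times, against 2.61 and 3.47 times in FPKM.

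**Figure D3:**
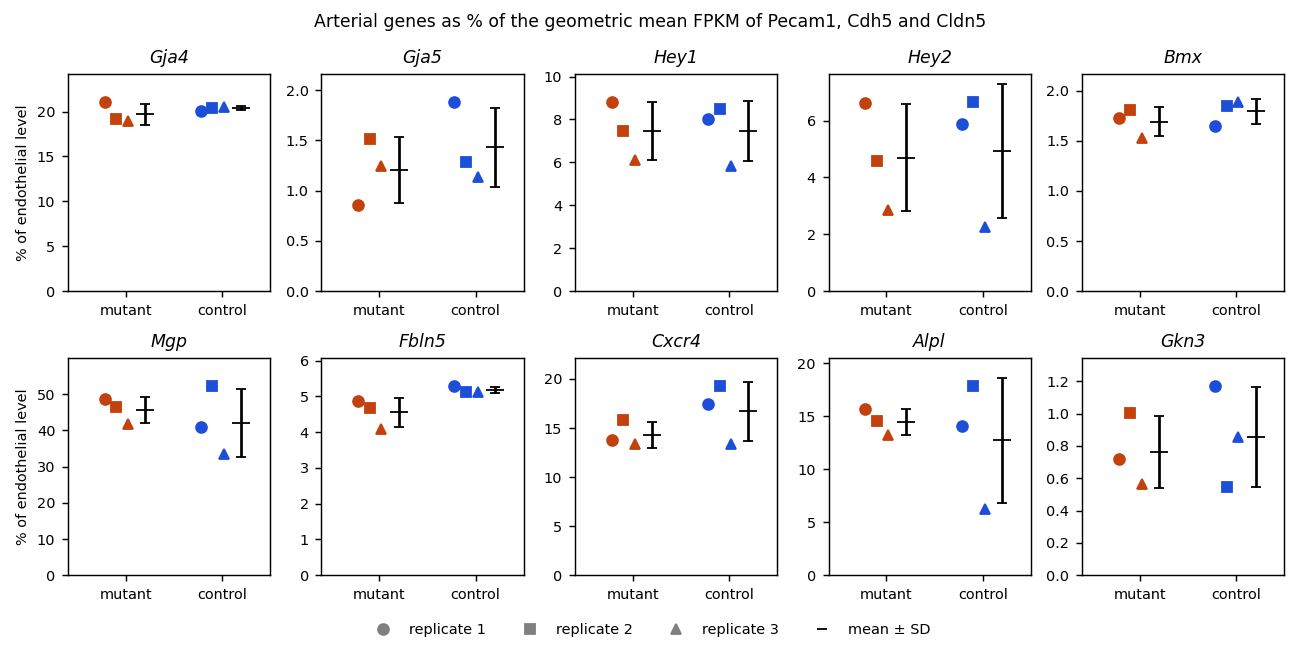
Each arterial gene as a percentage of the geometric mean FPKM of Pecam1, Cdh5 and Cldn5 in the same library (vertical axes from 0), mutants left and controls right; symbols give the replicate and black bars the mean ± SD. Gja4 stays between 18.9% and 21.0%, whereas Hey2 and Alpl drop to 2.25% and 6.25% in control replicate 3.

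No member passed relative to endothelial content either. With the mean log2(FPKM + 1) of the 3 reference genes subtracted in each library, limma called 0 of 9 members and 0% of 13622 genes at an adjusted p under 0.05, and at an unadjusted p under 0.05 it gave 0 members and 99 genes, or 0.727%. The endothelial mean was 6.38 ± 0.20 in mutants and 6.53 ± 0.61 in controls (SD, n = 3 each), so this scaling moved the median of all genes to 0.15, against -0.01 without it. The subtraction adds the same amount to every gene, and on this scale the members had a median of -0.02, with 5 of 9 tested members below 0, against 8.63% of all genes. Other vascular lists also lay above that share, with 13 of 22 genes of a wider endothelial list, 7 of 21 further arterial genes and 4 of 12 venous genes below 0. The lowest was Cxcr4 at -0.19 and the highest Alpl at 0.30, and groups were apart for 0 of 10 members, against 1.05% of all genes. Without control replicate 3, 9 of 9 members lay below 0, with a median of -0.17, while the median of all genes turned to -0.19. The limma standard errors of the members, 0.394 to 0.453, borrowed the spread of all genes on this scale, whereas the spread of Gja4 itself gave a standard error of 0.0503 for its difference of -0.04. Anxa3 was at -0.78 on the same scale, and its groups did not overlap.

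**Figure D4:**
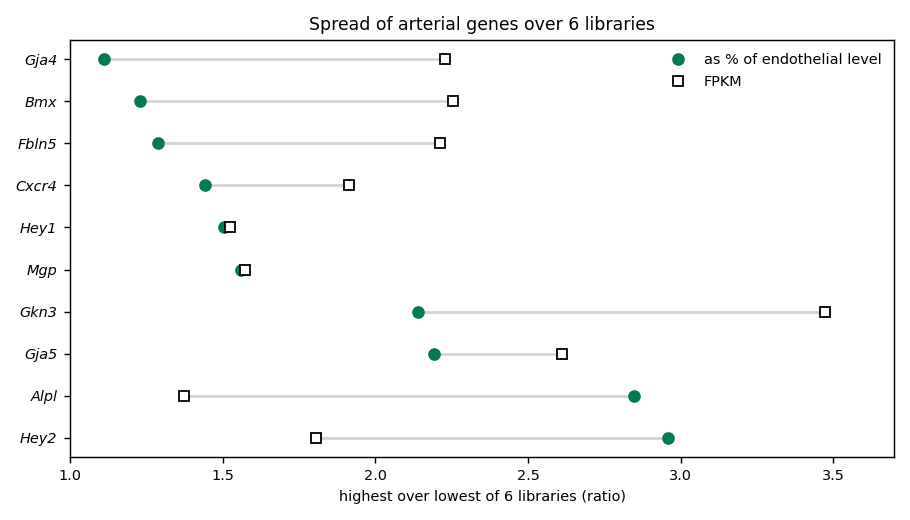
Highest over lowest value among the 6 libraries (horizontal axis, ratio) for each arterial gene, as a percentage of the endothelial level (filled circles) and as FPKM (open squares). The percentage narrows the spread of Gja4 to 1.11 times, Bmx to 1.23 times and Fbln5 to 1.29 times, and widens that of Hey2 to 2.96 times and Alpl to 2.85 times.

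The labels letter the libraries A to F, and mutant replicate 1 stands with control replicates 1 and 2 among A to C, mutant replicates 2 and 3 with control replicate 3 among D to F. The labels do not explain these letters. Among A to C, 4 of 10 members were lower in the mutant, with Cxcr4 at -0.32 and Gja5 at -0.38 on the log2 scale and Gja4 at 0.11. Among D to F, 9 of 10 were lower in the mutants, with Gja4 at -0.86, Fbln5 at -0.85 and Cxcr4 at -0.63, and Alpl was at 0.33. Relative to endothelial content, 6 of 10 were lower among A to C and 2 of 10 among D to F. Each set has 1 library of one genotype, so neither can be tested alone.

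Further arterial genes likewise gave no call. Of 24 listed, 21 were tested. Of these, 20 had a lower mean and 1 a higher mean in mutants, against 52.5% lower among all genes. The limma test passed 0 of 21, as it did 0% of all genes, and their median log2 difference was -0.13. The 23 genes in the expression table summed to 328, 324 and 374 FPKM in mutants. In controls they summed to 311, 326 and 523 FPKM, with control replicate 3 the highest. Slc6a6, the taurine transporter, had 63.4, 55.4 and 58.6 FPKM in mutants and 59.0, 63.3 and 75.2 FPKM in controls, a log2 difference of -0.15. Nrp1, the VEGF and semaphorin co-receptor, had 18.2, 18.7 and 19.8 FPKM in mutants and 19.5, 18.3 and 31.6 FPKM in controls, a log2 difference of -0.24. The Notch ligand Dll4 averaged 15.2 ± 4.48 FPKM in mutants and 18.8 ± 9.39 FPKM in controls, and the arterial ephrin Efnb2 15.7 ± 1.61 FPKM in mutants and 17.1 ± 1.56 FPKM in controls (SD, n = 3 each). The groups overlapped for these 4 genes. Cytl1 was listed at 0 in every library, and Dkk2 fell under the filter.

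Venous genes also had mostly lower means in mutants. Of 12 tested venous genes, 10 had a lower mean in mutants and 0 passed the limma test, with a median log2 difference of -0.13 in FPKM and 0.03 relative to endothelial content. The arterial members had -0.17 and -0.02. Slc38a5, an amino acid transporter, averaged 27.3 ± 3.84 FPKM in mutants and 35.4 ± 13.9 FPKM in controls, and Aplnr, the apelin receptor of veins, 57.4 ± 10.1 FPKM in mutants and 78.2 ± 38.8 FPKM in controls (SD, n = 3 each). In the wider endothelial list 22 of 22 genes had a lower mean in mutants and 0 passed. Over all genes, 52.5% had a lower mean in mutants and 0% passed. The adhesion receptor Adgrl4 averaged 44.8 ± 3.21 FPKM in mutants and 59.8 ± 26.8 FPKM in controls. The ETS factor Erg averaged 9.32 ± 1.01 FPKM in mutants and 12.3 ± 6.20 FPKM in controls. Control replicate 3 was high for both, at 90.6 FPKM for Adgrl4 and 19.4 FPKM for Erg. Control replicates 1 and 2 had 46.5 and 42.3 FPKM of Adgrl4 and 9.19 and 8.20 FPKM of Erg. The 14 venous genes summed to 400 FPKM in control replicate 3, and to 224 and 212 FPKM in control replicates 1 and 2. In mutants they summed to 208 to 254 FPKM. The median range over libraries as a percentage of the endothelial level was 1.33 times for the venous genes and 1.51 times for the 9 arterial members. The difference between the lists was not tested.

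The genes whose centred profile lay nearest to the mean profile of the 9 tested members were Smad1, Nek6, Peak1, Cd200 and Enpp2, with root-mean-square distances of 0.0170 to 0.0312 on the log2 scale over 6 libraries. The mean member profile was 0.37 above its own average in control replicate 3 and between -0.11 and -0.03 in the other 5 libraries. Among the members, Hey1 lay nearest to it at 0.0638 and Hey2 farthest at 0.335. The endothelial reference had the same high library, at 0.77 above its average, and Gja4 lay nearest to it of the 9 members, at 0.0549.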

How the data were processed

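RNA-seq of 6 libraries was analysed from 1 table in which the authors deposited FPKM per gene and library. The submitters' processing notes list Cufflinks 2.2.1, STAR 2.5.0b, DESeq2 and bedtools 2.17.0 with build mm10, without their roles; annotation, filters and strandedness were not given in the sources used here. The FPKM steps were turned back into reads: with a depth factor per library found from miRNA genes, reads came out whole (within 0.002 reads, or a relative 2e-08 for high counts) in 16491 of 16491 rows above 0 in every library. No libraries of a group agreed within sampling noise.

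Libraries were grouped by their labels. limma 3.58.1 (R 4.3.3, 2-sided) was run on log2(FPKM + 1), which understates changes of low genes, over the 13622 genes that reached 1 FPKM in 3 or more libraries. P-values were adjusted by Benjamini-Hochberg over these genes, with a threshold of 0.05. A second fit subtracted the mean of Pecam1, Cdh5 and Cldn5 in each library, and percentages of their geometric mean used no pseudocount. Because the values are FPKM, the only test of mutant against control that used the reads was an alternative, limma voom. Reads also gave the counting intervals, the read numbers and the agreement of libraries within a group. With 3 against 3 libraries, an exact permutation test cannot go below p = 0.1. The fits were tested on simulated data in which cell content did not vary between libraries. That test therefore does not cover a library such as control replicate 3. Python 3.11.15, numpy 2.4.6, pandas 2.3.3 and matplotlib 3.10.9 made tables and figures.

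The members and lists were chosen with earlier results of these data known. Named genes were the members, the endothelial reference genes, Anxa3, the pair of lowest p in each list and the 5 nearest profiles; lists of non-vascular and mural cells are given only as sums. Dll4, Efnb2, Cytl1 and Dkk2 were named after their values were seen. Promoter windows are from a set of RefSeq starts (GRCm38.p6) that held 8 of 10 members. It held no window for Hey1 and Mgp. Alternatives were another pseudocount, filters, normalizations, blocks, library weights, other endothelial references, voom and leaving out each library.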

Additional observations from a re-analysis of the deposited data

How the results depend on the processing

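None of the members tested passed in FPKM under any of 15 alternatives (9 members in each, but 10 with no filter and 8 where 1 FPKM was required in every library, which left out Gja5), with limma adjusted p from 0.121 to 1. The replicate numbers were not shown to pair the libraries, since deviations of same-numbered libraries correlated at 0.249, -0.151 and 0.391. With the replicate block 0 genes were called in FPKM and 17 relative to endothelial content, and 0 members on either scale. The count of 0 of 9 members at an unadjusted limma p under 0.05 moved in some alternatives. In FPKM it was 1 of 9 with the replicate block (296 genes in all), the letter block (927), library weights (4069) and without control replicate 2 (136). Relative to endothelial content it was 4 of 9 with library weights (4141 genes) and 1 of 9 with the endothelial mean as a covariate (287). The cause of the changes given here was not tested.

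In FPKM, library weights, whose estimation stopped short of its convergence tolerance, called 145 genes, 125 higher and 20 lower in mutants, and reversed Gja4 (0.0343), Gja5 (0.107), Bmx (0.0481), Mgp (0.0421) and Alpl (-0.0243). The letter block (A to C, D to F) reversed Hey2 (0.0255), and limma voom on recovered reads reversed Mgp (0.00784). Leaving out each library in turn, the log2 differences ranged over Gja4 -0.409 to 0.142, Gja5 -0.368 to -0.0773, Hey1 -0.24 to 0.0256, Hey2 -0.30 to 0.0348, Bmx -0.299 to 0.0807 and Mgp -0.15 to 0.169.

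Relative to endothelial content, the count of 0 genes became 11 with the letter block, 2373 with library weights, 2 with the wider endothelial list, 6 with Pecam1 alone, 2 with Cdh5 alone and 14 with no pseudocount, an alternative chosen after the data were seen. It was 0 to 68 with each library left out in turn, and 68 without control replicate 3. Library weights called 1 member, Hey2, at -0.243 (limma adjusted p = 0.0476, against up to 1 over the alternatives). The sign turned with the letter block for Gja5 (0.0219) and Bmx (0.0507), with weights also for Hey1 (-0.0702) and Bmx (0.0578), with Pecam1 alone for Gja4 (0.0421), Gja5 (0.0256) and Bmx (0.0701), and with Cdh5 alone for Gja4 (0.00223) and Bmx (0.0302). It turned with Cldn5 alone for Hey1 (-0.113) and Hey2 (-0.0996), with the endothelial mean as a covariate for Hey1 (-0.0726) and Hey2 (-0.186), with no pseudocount for Hey2 (-0.00367) and with quantile normalization for Bmx (0.00144). Leaving out each library in turn, relative differences ranged over Gja5 -0.296 to 0.106, Hey1 -0.166 to 0.15, Hey2 -0.427 to 0.306, Bmx -0.111 to 0.0768, Mgp -0.023 to 0.297 and Alpl -0.136 to 0.597. Cxcr4 and Fbln5 lay below 0 under every alternative run on both scales. Gkn3 and Gja5 rested on the fewest reads.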
